A study of Mus musculus with 1298 samples.

Results

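Late mesenchymal progenitors at E16.5 are the cells of the Pax7 lineage in which a panel of 4 genes, Ogn, Aspn, Postn and Igf1, stood above 8 other 4-gene panels. The series follows mouse embryonic cells from Pax7CreER:R26R-stop-EYFP embryos, in which tamoxifen (75 µg per g of the pregnant female, E9.5) switched on EYFP in cells using the Pax7 driver and in their descendants. YFP+ cells of E12.5, E14.5 or E16.5 embryos, taken without head, limbs and viscera, were sorted and were profiled by droplet 3′ counting (10x) and by full-length sequencing of single sorted cells (Smart-seq2). Embryos were pooled before sorting, every stage carries the same alleles and the same tamoxifen, and there is no untreated or Cre-negative group here. The YFP mark records that a cell's ancestor used Pax7 when tamoxifen was given, and not that the cell still does: Pax7 itself was found in only 2 of the Smart-seq2 late progenitors (1.8%).

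Of 3852 cells that passed the study's stated filters, 7.74% were late progenitors at E16.5. Of these members 63.4% came from 10x and 36.6% from Smart-seq2, where 4 plates held 30, 30, 26 and 23 of them. They were chosen by their measured values: the score of a panel is the mean of log2(1 + counts per 10,000) over its 4 genes, and a cell entered when the Ogn, Aspn, Postn and Igf1 score was the highest of the 9 panels, with no tie, and at least 0.7. The 9 panels cover early progenitors, late progenitors, muscle progenitors, differentiating muscle, dermal, adipocyte, neuronal, glial and pericyte cells. The levels of panel genes in these cells therefore follow from the choice and are described without a test. The same holds for any gene compared between late progenitors and the other E16.5 classes, since the same cells were sorted into classes by their expression.

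Mesenchymal progenitors of the embryonic trunk lay down the loose connective tissue that later becomes dermis, fascia, fat and the sheaths around muscle. Much of what such cells make is matrix: fibrillar collagens, the elastic microfibrils on which elastin is deposited, and small leucine-rich proteoglycans that sit on collagen fibrils and set their width. Osteoglycin (Ogn) and asporin (Aspn) belong to the last family, periostin (Postn) is a matricellular protein that helps collagen cross-link and bind cells, and Igf1 is a secreted growth factor that acts on many tissues, muscle among them.

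Ogn and Aspn are neighbours. On mouse chromosome 13 (GRCm38), Aspn spans 49544443 to 49567565 and Ogn spans 49608046 to 49624501, both on the + strand, in a row of proteoglycan genes that runs Ecm2, Aspn, Omd, Ogn with gaps of 11.7, 14.9 and 15.2 kb. All lie within the span of Cenpp, which is annotated on the opposite strand. The row did not share 1 level in late progenitors: Omd had no UMI in the 10x members and 1.4 CPM in Smart-seq2 (CPM is the summed count of a gene per 1e6 counts of the same cells), and Ecm2 had no UMI and 12.8 CPM. Postn lies at chromosome 3, 54361109 to 54391037 (+), and Igf1 at chromosome 10, 87858265 to 87937042 (+). The 250 bases before the start of 3 of the panel genes are shown because these genes chose the members; they are RefSeq windows of GRCm38.p6 on the + strand, at chr13:49607765-49608014 for Ogn, chr13:49544193-49544442 for Aspn and chr3:54360857-54361106 for Postn. Capitals mark matches, on either strand, to TATAAA (the TATA box), TGANTCA (the AP-1 site) or GGAATG (the TEAD site).
Ogn: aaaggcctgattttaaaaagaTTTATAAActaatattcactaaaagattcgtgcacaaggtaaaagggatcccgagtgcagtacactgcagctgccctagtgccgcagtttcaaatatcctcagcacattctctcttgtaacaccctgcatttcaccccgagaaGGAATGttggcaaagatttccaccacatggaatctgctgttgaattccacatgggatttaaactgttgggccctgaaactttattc
Aspn: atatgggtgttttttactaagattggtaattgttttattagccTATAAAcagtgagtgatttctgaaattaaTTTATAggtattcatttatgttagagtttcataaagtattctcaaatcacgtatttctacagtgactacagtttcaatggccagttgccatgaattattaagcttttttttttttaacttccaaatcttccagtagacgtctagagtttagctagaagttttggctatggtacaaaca
Postn: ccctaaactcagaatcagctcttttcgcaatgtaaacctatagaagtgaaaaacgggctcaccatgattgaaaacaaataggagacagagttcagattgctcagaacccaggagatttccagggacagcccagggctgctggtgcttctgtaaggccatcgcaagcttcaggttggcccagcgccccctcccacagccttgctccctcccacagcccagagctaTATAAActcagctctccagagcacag
TATAAA was found in each of the 3 windows, and in Postn it began 26 bases before the RefSeq start. In Ogn 2 overlapping matches, 1 on each strand, lay near the far end of the window, and in Aspn 2 matches, 1 on each strand, lay in its far part. GGAATG was found once, in Ogn, 86 bases before the RefSeq start, and TGANTCA was found in none of them. The RefSeq start of Ogn lies 31 bases before the start of its span given above. Over all 27025 RefSeq promoter windows, cut to the same length, 13.0% held TATAAA, 12.6% held GGAATG and 6.87% held TGANTCA on either strand. These matches describe the letters in the windows only.

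Depth differed between platforms and between stages. A late progenitor had a median of 1466 UMIs and 724 genes in 10x at E16.5, against 5409 UMIs and 1930 genes at E14.5, and a median of 784943 and 989608 estimated counts in Smart-seq2. Each 10x stage is 1 library of pooled embryos. How many pools of embryos stand behind the plates of a stage is not given in the sources used here. By the labels the first pair of E14.5 plates and the other pair belong to different sequence batches, the E16.5 plates share 1, and no batch holds both stages, so batch and stage cannot be told apart on that platform. The 10x libraries shared 3 cell barcodes, none of them in late progenitors. No doublet caller was run, and no 10x cell over 15000 counts was used.

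Late progenitors made up 20.1% of the 940 10x cells kept at E16.5 (exact 95% interval 17.6 to 22.8%), and 37.5% of the cells in the Smart-seq2 plates of that day (31.9 to 43.3%). The 4 Smart-seq2 plates gave 40, 40.5, 33.3 and 35.9%, so the plates lay close to each other and all lay above the 10x share. At E14.5 the shares were 32.5% in 10x and 18.1% in Smart-seq2, whose plates gave 30.4, 21.3, 10.5 and 5.08%. The share therefore moved in opposite directions on the 2 platforms between the stages. At E12.5 it was 2.36% in 10x and 5.73% in Smart-seq2. These are shares of sorted cells, their intervals cover counting error only, and cells lost in dissociation or sorting were not measured.

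How firmly a cell was placed depended on the platform. In Smart-seq2 the member scores ran from 1.30 to 5.81 with a median of 3.93, 86 cells (78.9%) had all 4 genes and the other 23 had 3 of them. In 10x the scores ran from 0.738 to 4.31 with a median of 2.05, 34 cells (18%) had only 1 of the 4 genes and 6 of these rested on a single UMI. In 10x only 10 cells with this panel highest fell under the threshold, at 0.543 to 0.694, and 37 members lay between the threshold and 1.4. A further 60 Smart-seq2 cells at E16.5 had a score of 0.7 or more with another panel higher, as did 46 10x cells called dermal-like and 17 called adipocyte-like. Of the 60, 34 were called muscle progenitor-like and 16 dermal-like. After each cell was thinned to 1000 UMIs, 79.5% of the 10x members deep enough to thin were called late progenitors again, and after thinning to 100000 counts so was every Smart-seq2 member deep enough.

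**Figure D1:**
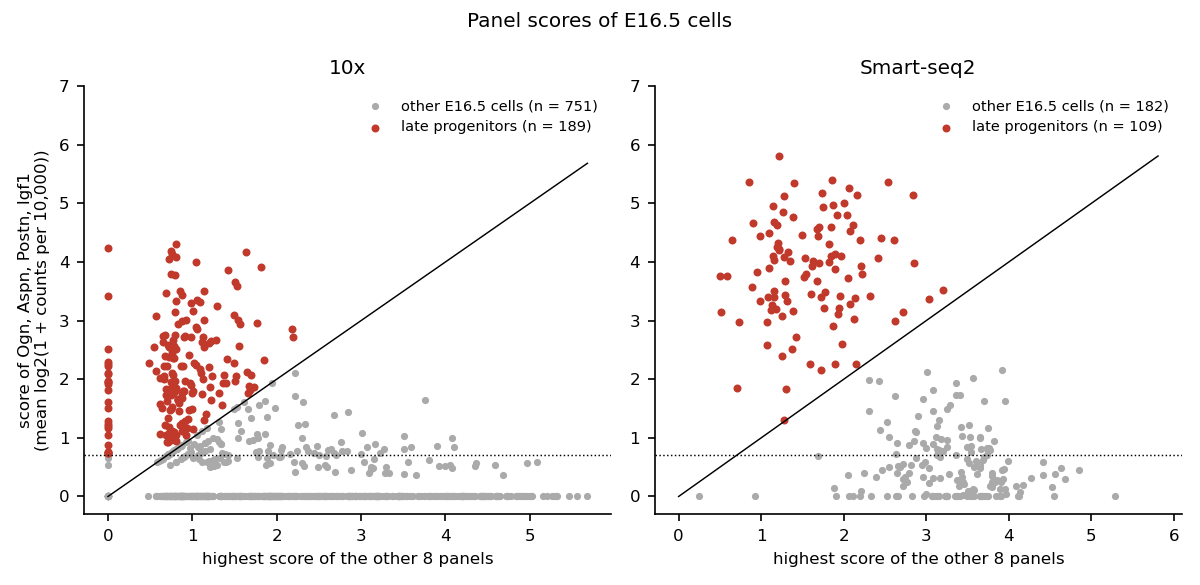
Score of the Ogn, Aspn, Postn and Igf1 panel (y axis, mean log2 of 1 + counts per 10,000) against the highest of the other 8 panel scores (x axis) for every E16.5 cell, with 10x on the left and Smart-seq2 on the right. Red points are the late progenitors, above both the diagonal of equal scores and the dotted line at 0.7, and most Smart-seq2 members sit far from both lines while many 10x members lie near them.

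The panel that most often came second in late progenitors was the dermal panel. The second-highest panel was the dermal panel in 53 of the 10x members (28%) and 68 of the Smart-seq2 members (62.4%), and it was the early progenitor panel in 51 of the 10x members. A muscle progenitor panel came second in 36 and 29 cells. That score was carried by a single gene, Capn6, a calpain-family protein, found in 36 of these 36 and 29 of these 29 cells. Among the same cells the muscle regulators Msc, Cdh15 and Myf5 were found in 0, 1 and 1 of the 10x cells and in 3, 4 and 0 of the Smart-seq2 cells. Over all members Capn6 stood at 255.8 CPM in 10x and 1642 CPM in Smart-seq2, and it was found in 57 and 95 cells.

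The 4 panel genes behaved differently from each other across platforms and stages. Ogn was found in 92 of the 10x members (48.7%), against 2.93% of dermal-like and 7.14% of muscle progenitor-like cells, with median depths of 1466, 1407 and 1751 UMIs. Those classes were formed by leaving out cells in which this panel was highest, so their shares are no independent background. The summed level of Ogn in 10x was 518.3 CPM in members (exact Poisson 95% interval 440 to 606), 24.4 in dermal-like and 9.09 in adipocyte-like cells. Postn, found in 89.4% of 10x members, stood at 1784 CPM (1637 to 1942) against 146.3 in dermal-like cells. Aspn stood at 338.9 CPM (276.3 to 411.4) against 17.1, and Igf1 at 701 CPM (610 to 802) against 78.04. In Smart-seq2 the members had 1768, 1394, 6002 and 1023 CPM of Ogn, Aspn, Postn and Igf1, and dermal-like cells had 23.9, 1.6, 83.5 and 214.5. Igf1 was thus the panel gene with the smallest gap to dermal-like cells on both platforms, a log2 difference of 3.17 in 10x and 2.25 in Smart-seq2. Against muscle progenitor-like cells the Smart-seq2 log2 differences were 3.06 for Ogn, 7.08 for Aspn, 3.95 for Postn and 5.57 for Igf1.

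Between stages, late progenitors were chosen by these genes at both E14.5 and E16.5, so the levels describe the chosen cells. In 10x, Postn stood at 644 CPM at E14.5 and 1784 at E16.5. Ogn went from a level of 368.7 to 426.9 CPM (the 95% interval) to one of 518.3, while Aspn (342.6 and 338.9) and Igf1 (697 and 701) were close to level. In Smart-seq2 the pair that was level in 10x split: Aspn went from 301.3 to 1394 CPM and Igf1 from 847 to 1023. The E16.5 plates had 1424, 1106, 1488 and 1616 CPM of Aspn, and the E14.5 plates 267.5, 278.8, 219.05 and 1219, the last from a plate with 3 late progenitors. Leaving that plate aside, the E14.5 and E16.5 plates did not overlap for Ogn (545 to 1113 against 1480 to 1999 CPM), for Aspn or for Postn (3683 to 5455 against 5666 to 6724), and they overlapped for Igf1 (775 to 1666 against 981 to 1070). With that plate, Aspn overlapped. Plates are not tied to embryos by the labels, the E14.5 plates come from different sequence batches, and no batch holds both stages. How many of all genes separate by plate in this way was not counted, and no test between stages was made on the plates.

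**Figure D2:**
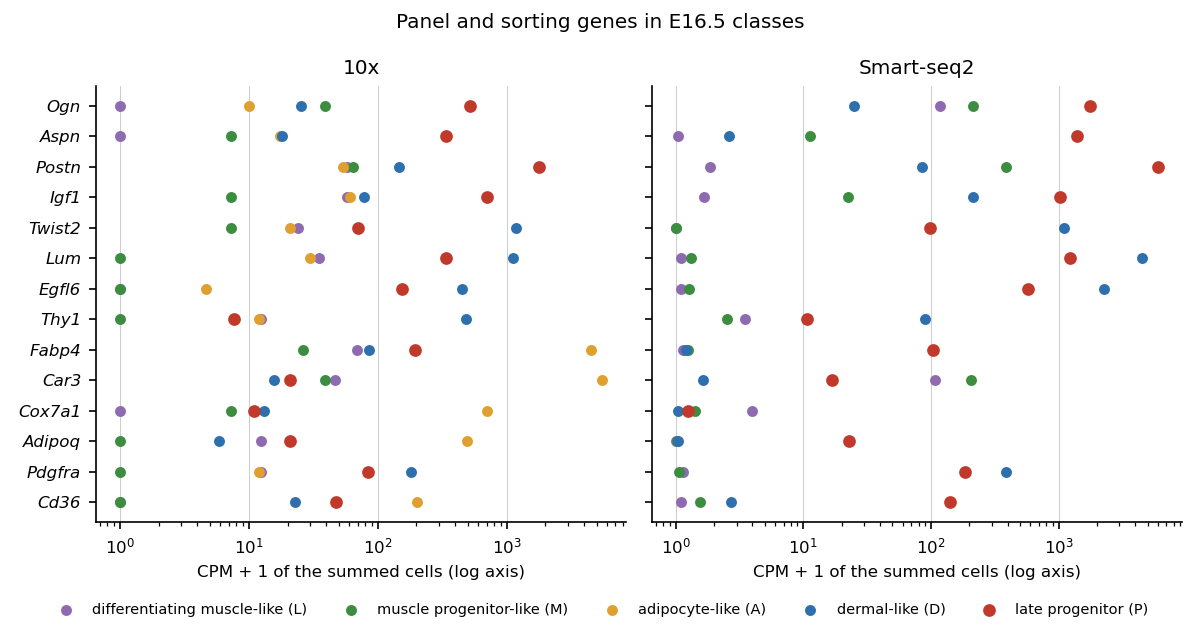
Level of panel genes and of Thy1, Pdgfra and Cd36 (x axis, CPM + 1 of the summed cells, log axis) in each E16.5 class of at least 20 cells, with 10x on the left and Smart-seq2 on the right. Each point is 1 class, late progenitors in red, and adipocyte-like cells are absent from the right panel because only 15 were found there. Late progenitors are highest for Ogn, Aspn, Postn and Igf1, while dermal-like cells are higher for Twist2, Lum, Egfl6 and Thy1.

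The genes of the dermal and adipocyte panels helped to sort the cells, so their levels in members describe the choice and do not test the label. Thy1, a surface protein of dermal fibroblasts, had 6.6 CPM in 10x members (2 UMIs in all) against 487.7 in dermal-like cells, and 9.6 against 88.7 CPM in Smart-seq2. Twist2, a transcription factor of dermal precursors, had 69.8 against 1178 CPM and 97.4 against 1100 CPM. Lumican (Lum), another collagen-binding proteoglycan, stood at 338.9 against 1112 and 1225 against 4519 CPM, and Egfl6 stood at 152.8 against 453.6 and 578 against 2280 CPM. Of the adipocyte panel, Adipoq, the adipocyte hormone adiponectin, was found in 5 10x and 6 Smart-seq2 members (2.65 and 5.50%), and Cox7a1, a brown-fat mitochondrial subunit, in 3 and 8. The other panel genes were found more often in Smart-seq2, with Car3, a carbonic anhydrase, in 6 and 42 members (3.17 and 38.5%) and Fabp4, a fatty acid-binding protein, in 30 and 35. Pdgfra, the receptor used to mark fibro-adipogenic progenitors, stood at 83.1 CPM in 10x members and 185.6 in Smart-seq2, below the 180.5 and 387.02 CPM of dermal-like cells.

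The other E16.5 classes with 20 or more cells were dermal-like, muscle progenitor-like and differentiating muscle-like cells on both platforms and adipocyte-like cells in 10x alone. Genes were compared if they had at least 20 UMIs in the 10x late progenitors. Against each of these classes, 110 of 1892 such genes were at least 2-fold higher in late progenitors on every platform where the class was summed, or 5.81%. Genes entered by their counts in late progenitors alone, so this share is no even background. The 20 with the largest smallest gap were, in order, Angptl1, Col11a1, Sfrp1, Pamr1, Mfap5, Ptn, Mfap4, Thbs4, Col5a3, Clec3b, Col14a1, Tnmd, Ly6h, Tshz2, Tnxb, Ccn3, Sema3c, Akap12, Fam129a and Tmeff2. Because the classes were made from the same cells, these genes describe the class, and no test was made. Late progenitors at E14.5 were not among the classes compared. Against them, in 10x and Smart-seq2, Ptn stood at log2 -1.27 and -0.47, Sfrp1 at -0.11 and -0.77 and Mfap5 at 1.83 and 2.29. Of the first 100 genes ranked this way, 49 were higher at E16.5 on both platforms and 9 lower. Over all 13968 genes tested between stages, 1759 were higher and 5048 lower.

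Angptl1, a secreted angiopoietin-like protein, led the list. It stood at 225.9 CPM in 10x members (50 cells, 26.5%) against 9.8 in dermal-like cells and 9.1 in adipocyte-like cells, and at 571 CPM in Smart-seq2, where it was found in 92.7% of cells. Its 4 plate values, 602, 510, 499.4 and 699 CPM, were close to each other. Sfrp1, a secreted Wnt inhibitor, stood at 162.8 against 2.4 CPM and at 117.7 against 7.2 CPM. Ptn, the heparin-binding growth factor pleiotrophin, had the most UMIs of the list, at 1382 CPM in members against 141.4, 138.2 and 121.8 CPM in dermal-like, muscle progenitor-like and adipocyte-like 10x cells. The near-equal Ptn in those 3 classes is a level that free RNA could reach, and its source was not tested.

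Mfap5, a microfibril glycoprotein, had 415.3 CPM in 10x members against 24.4 in dermal-like cells and 548 against 0.3 CPM in Smart-seq2. Mfap4, which binds elastin and collagen, had 578 against 51.2 and 1171 against 89.8 CPM. Tenascin-X (Tnxb), a tenascin of loose connective tissue, had 93.04 against 12.2 CPM in 10x and 92.4 CPM against none in Smart-seq2. Of 23 matricellular and elastic fibre genes with enough UMIs, 11 were at least 2-fold higher in late progenitors than in dermal-like cells on both platforms and none was lower; the others were Thbs1, Thbs4, Ccn3, Fbn1, Eln, Fbln5, Ltbp3 and Emilin1. Over all 3924 genes compared with dermal-like cells, 5.94% were higher and 4.05% lower by that measure. Elastin (Eln) had 491.8 against 104.9 CPM in 10x, a log2 difference of 2.23 (1.73 to 2.75, counting error only), and 222.7 against 66.6 CPM in Smart-seq2. Fibrillin 1 (Fbn1), the backbone of the microfibril, had 372.1 against 146.3 and 385.7 against 94.5 CPM. The list's median log2 difference was 1.02 in 10x and 1.53 in Smart-seq2, beside 0.05 and -0.09 over all genes.

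Of 18 collagens compared with dermal-like cells, 6 were at least 2-fold higher on both platforms and 1, Col8a1, was lower. The abundant fibrillar chains were close: Col1a1 had 8054 CPM in 10x members and 7435 in dermal-like cells, and Col3a1 had 6742 and 6345. The minor fibrillar chains Col5a1 (log2 difference 0.42 in 10x and 0.52 in Smart-seq2) and Col5a2 (0.51 and 0.42), the fibril-associated Col16a1 (0.04 and 0.44) and Col6a1, Col6a2 and Col6a3 were not among the 6. Col11a1, a minor chain built into fibrils, had 182.7 against 9.8 CPM in 10x and 77.4 against 0.5 CPM in Smart-seq2. Col5a3 had 156.2 against 17.1 and 191.05 against 1.7 CPM, Col14a1, a fibril-associated collagen, had 385.4 against 48.8 and 548 against 28.9 CPM, and Col12a1 had 528.3 against 202.4 and 698 against 65.6 CPM. Col15a1 and Col18a1, which belong to basement membrane zones, completed the 6. Of the small leucine-rich proteoglycans outside the panel, 3 had enough UMIs, none was higher and Lum, a gene of the dermal panel, was lower.

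Of 9 genes of the insulin-like growth factor axis, Igf1 itself not counted, 6 were at least 2-fold higher than in dermal-like cells on both platforms and none was lower. Igf2, the fetal growth factor, had 691 against 121.9 CPM in 10x and 2470 against 98.7 CPM in Smart-seq2. Its receptor Igf2r, which takes Igf2 up for degradation, had 199.4 against 75.6 and 231.3 against 41.8 CPM. The binding proteins Igfbp3, Igfbp4, Igfbp6 and Igfbp7, which hold the factors outside cells, were the other 4, with Igfbp4 at 934 against 92.7 and 1554 against 117.6 CPM and Igfbp6 at 130 against 7.3 and 200 against 0.9 CPM.

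Of 11 imprinted and fetal growth genes, 7 were at least 2-fold higher than in dermal-like cells on both platforms: Igf2, Dlk1, Mest, Plagl1, Cdkn1c, Grb10 and Ndn. Igf2 is also counted in the insulin-like growth factor axis, and Dlk1 among the adipogenic genes. Dlk1, a membrane protein that holds back fat differentiation, was among the most abundant transcripts of the 10x members at 9865 CPM against 2443 CPM, and stood at 1029 against 84.7 CPM in Smart-seq2. Mest had 2110 against 320 and 7305 against 345.8 CPM, and Plagl1, a zinc-finger regulator of other imprinted genes, had 2129 against 69.1 CPM in Smart-seq2 and a log2 difference of 2.76 in 10x (2.34 to 3.19). The growth arrest gene Cdkn1c had 2558 against 775 and 634 against 110.9 CPM. Against muscle progenitor-like cells, however, Cdkn1c was lower (log2 -0.54 in 10x and -1.01 in Smart-seq2) and Grb10 split by platform (0.46 and -0.30). Igf2, Dlk1, Mest, Plagl1 and Ndn were higher than in those cells on both platforms.

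Among adipogenic genes 6 of 9 were higher than in dermal-like cells, Cebpd, Ebf2, Fabp4, Cd36, Lpl and Dlk1, and none was lower; Fabp4 among them is a panel gene. Ebf2, a transcription factor of preadipocytes, had 110 against 17.1 CPM in 10x and 222.9 against 0.1 CPM in Smart-seq2. The adipocyte-like cells had 198.2 CPM of Ebf2 in 10x, and their Fabp4, at 4491 CPM, was far above the 192.7 CPM of the late progenitors. Fabp4 was found in 15.9% of 10x members, against 8.79% of dermal-like and 4.76% of muscle progenitor-like cells, and in 32.1% of Smart-seq2 members, against 6.45% and 9.52%. Of 9 dermal genes with enough UMIs, 6 were lower and Dkk2 was higher. Of the 6, Twist2, Thy1 and Egfl6 belong to the panel that placed the cells, and Twist1, Crabp1 and Lef1 do not. Crabp1, a retinoic acid-binding protein, had 112.97 against 1251 CPM in 10x, and Lef1, a Wnt effector of the upper dermis, had no UMI in members against 68.3 CPM. Dpp4 and Prdm1 of the dermal list had too few UMIs to be counted, with 10 against 2 and 0 against 1. The log2 difference of Dpp4 was 2.77 in 10x and 1.49 in Smart-seq2.

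Secreted Wnt regulators also split. Sfrp1, Sfrp2 and Dkk2 were higher in late progenitors, Sfrp2 with 182.7 against 70.7 and 487.9 against 40.1 CPM, and the ligand Wnt4 and the inhibitor Wif1 were lower, Wif1 with 6.6 against 134.1 and 77.8 against 936 CPM. Of 14 fibro-adipogenic and fascia progenitor markers, 11 had enough UMIs. Of these, Cd34 alone was higher (166.1 against 51.2 and 555 against 163.6 CPM), and Pdgfra, Tcf4, Gli1 and Nt5e were lower. Pi16, Meox1 and Meox2 had too few UMIs to be counted, with 13 against 0, 16 against 0 and 12 against 1. Each of them was also higher than in dermal-like cells in Smart-seq2.

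**Figure D3:**
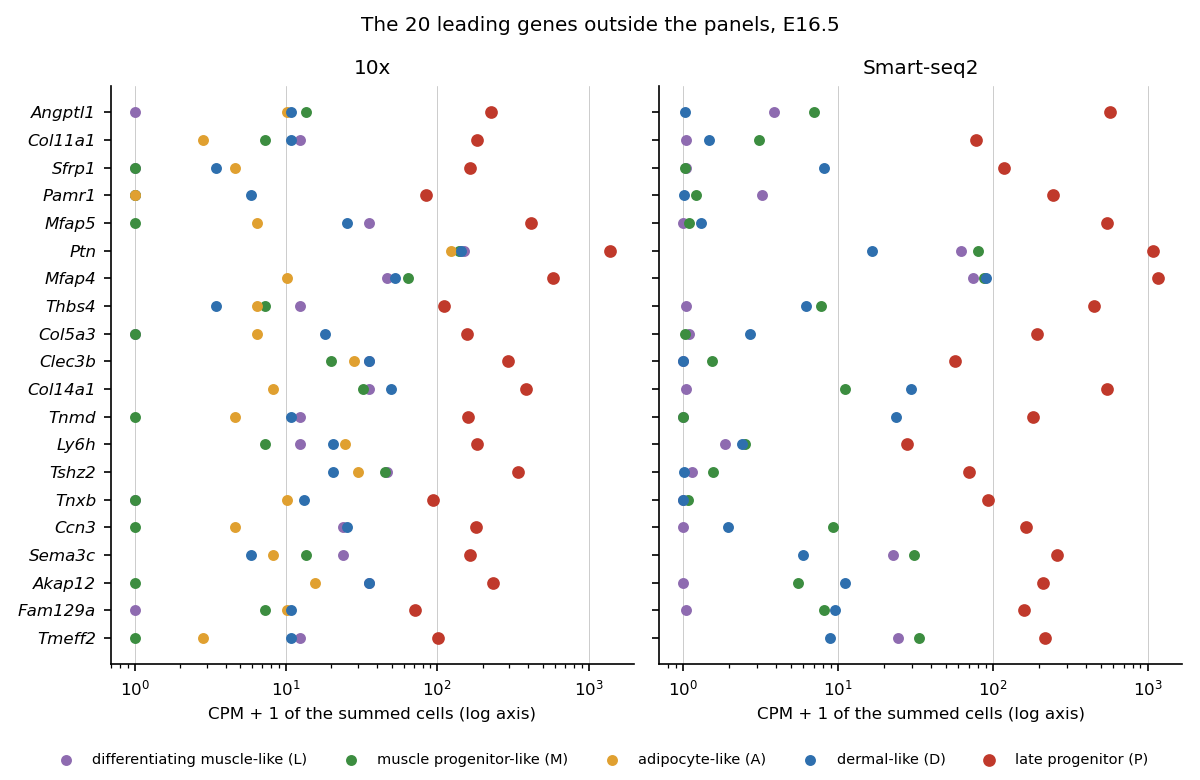
Level (x axis, CPM + 1 of the summed cells, log axis) of the 20 genes furthest above the other E16.5 classes of at least 20 cells, with 10x on the left and Smart-seq2 on the right. Each point is 1 class and late progenitors are red, to the right of all others for every gene because that is how the genes were picked. Adipocyte-like cells are shown for 10x only.

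Late progenitors were not alike among themselves. The Smart-seq2 cells, with a median of 7294 genes each, allow single cells to be compared, and a gene was counted as on in a cell above 100 CPM. Cd36, a fatty acid transporter, was above 100 CPM in 21 cells (19.3%) and Fabp4, a fatty acid-binding protein, in 19 (17.4%), and 18 cells had both. Spearman's rho between them was 0.82 over all these cells and 0.80 to 0.87 within the 4 plates. The pair occurred on every plate, with Cd36 above 100 CPM in 6, 6, 5 and 4 cells. In these 18 cells Lpl, the lipoprotein lipase, had a median of 920 CPM, against 148.1 over all members, and Pparg, the fat master regulator, 53 against 0. Adiponectin had a median of 0 there. Their Ogn and Aspn had medians of 1112 and 1120 CPM, against 1396 and 847 over all members, while Igf1 was at 280 and Postn at 2394, against 824 and 5281. Ogn and Aspn helped to choose the members, and Fabp4 and Adipoq belong to a competing panel. A cell with low Ogn and Aspn or much Adipoq could have been called adipocyte-like, so these levels follow in part from the choice.

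A second set of cells carried Dpp4, a surface peptidase of fascia fibroblasts that stands on the dermal list used here. Dpp4 was above 100 CPM in 24 cells, on plates in 4, 9, 6 and 5 cells. Mfap5 was above 100 CPM in 22 of those 24, and their median Mfap5 was 1564 CPM against 151.1 over all members. Cd34 had a median of 1064 CPM there, against 441.5. Spearman's rho over all Smart-seq2 members was 0.61 between Dpp4 and Mfap5, 0.67 between Cd34 and Mfap5, and 0.46 between Dpp4 and Ly6a, the Sca-1 antigen. Dpp4, Cd34, Pi16 and Ly6a are used in adult tissue as markers of fascia and reticular progenitors, and Pi16 and Ly6a were above 100 CPM in 11 and 13 cells.

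Thrombospondin 4 (Thbs4), a matrix protein of tendon and muscle attachments, was above 100 CPM in 53 cells. Only 3 cells with both Fabp4 and Cd36 also had Thbs4 above 100 CPM, and rho between Fabp4 and Thbs4 was -0.44 (-0.50 to -0.38 within plates). Igf1 went with Thbs4 (rho 0.45), with a median of 1312 CPM in the Thbs4 cells. The tendon gene Tnmd was above 100 CPM in 15 cells, and was found in 31, with 33.3% of its CPM added over cells in 1 cell. The tendon regulators Scx and Mkx were found in 1 and 29 Smart-seq2 members and in 8 and 0 10x members, and Kera, the proteoglycan keratocan, in 12 and 0. Of all these cells, 8 had both Dpp4 and Thbs4, 3 had Fabp4 and Cd36 with Dpp4, and 28 had none of these genes above the limit. The limit is a choice: 9, 1, 16 and 18 cells lay between 50 and 200 CPM for Fabp4, Cd36, Dpp4 and Thbs4.

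Within the panel, Postn and Aspn had a rho of 0.52 over cells (0.22 to 0.81 within plates), and Igf1 and Aspn one of -0.19 (-0.49 to 0.09). Cells were chosen by the mean score of the 4 panel genes, and Fabp4 belongs to a competing panel. The rho values that involve these genes therefore depend on the choice and describe the chosen cells only. These correlations are over cells of 4 plates from 1 sequence batch, and cells are not independent replicates. Their rho with the cell's total counts ran from -0.13 to 0.06 for Fabp4, Cd36, Cd34, Dpp4, Mfap5, Thbs4, Postn and Igf1, while Postn had a rho of -0.30 with the number of genes found. The 10x members, at a median of 724 genes, are too shallow to place single cells in the same way.

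**Figure D4:**
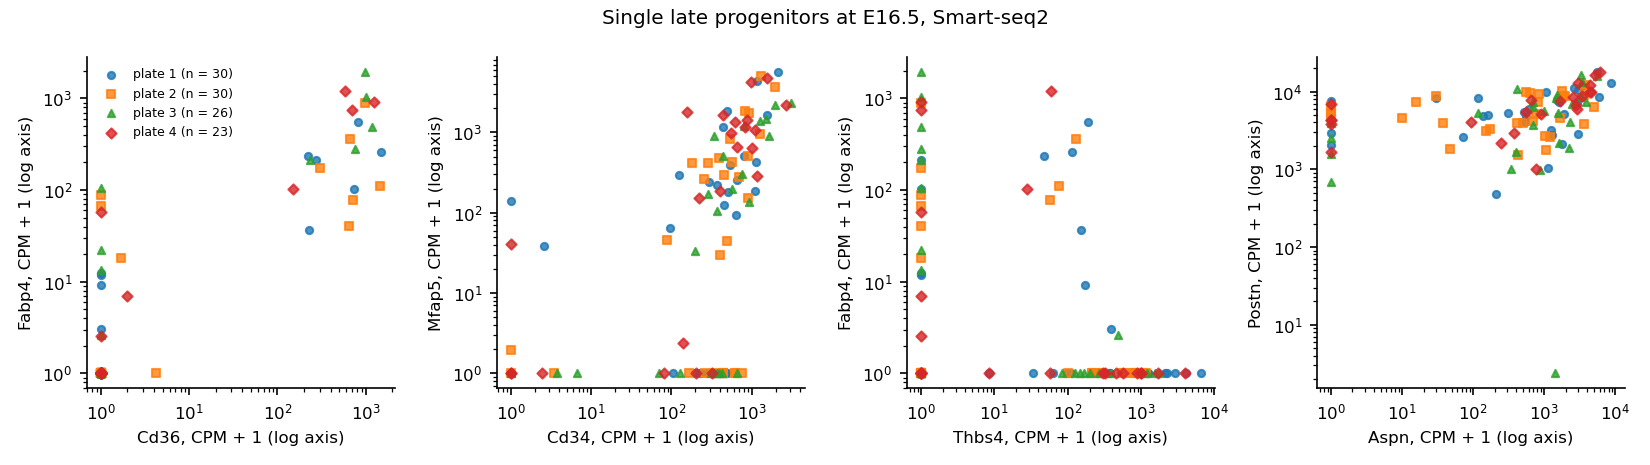
CPM + 1 (log axes) of gene pairs in the Smart-seq2 late progenitors at E16.5, 1 point a cell, with colour and shape for the plate (30, 30, 26 and 23 cells). Cells with Cd36 above 100 CPM nearly all have Fabp4 (18 of 21), 58 of the 59 cells with Mfap5 above 100 CPM also have Cd34 above it, and few cells have both Fabp4 and Thbs4.

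Whether late progenitors changed between E14.5 and E16.5 was tested on summed counts. The fit took 16 sums, for late progenitor, dermal-like, muscle progenitor-like and differentiating muscle-like cells at 2 stages on 2 platforms. It tested 1 stage term fitted over both platforms, which does not require the platforms to agree (edgeR quasi-likelihood test). With 1 sum per platform, stage and class, the p-values measure the spread between these sums, not between embryos. Of 13968 genes, 30 were higher (0.215%) and 11 lower (0.0788%) at E16.5 at an adjusted p under 0.05, and 3.74% and 3.43% had an unadjusted p under 0.05. Of the calls, 23 of the 30 and 8 of the 11 had the same direction of the CPM difference on both platforms. These calls rest on the Smart-seq2 sums: without either of them edgeR called no gene in either direction, with 1.06 to 1.09% of genes higher and 0.953 to 1.03% lower at an unadjusted p under 0.05, whereas without a 10x sum it called 1.10 or 1.12% higher and 0.348 or 0.360% lower. DESeq2 called 46 higher and 76 lower (2.36 and 1.98% at an unadjusted p under 0.05), and shared 16 of the 41 calls.

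Among the genes with counts enough to follow on both platforms, the metallothioneins were the clearest. These small metal-binding proteins respond to zinc, glucocorticoids and stress, and Mt1 and Mt2 are close copies whose reads can be hard to split. Mt1 stood at 104.4 CPM at E14.5 and 591 at E16.5 in 10x, and at 0.2 and 88.2 CPM in Smart-seq2, where it was found in 1 of 59 cells and then in 55 cells (log2 difference 5.54 ± 1.09 SE, edgeR adjusted p = 0.0225). The E16.5 plates had 130.8, 74.9, 106.3 and 36.9 CPM, and no E14.5 plate exceeded 0.50. Mt2 rose from 75.0 to 385.4 and from 1.8 to 39.6 CPM (log2 3.62 ± 0.75, adjusted p = 0.0228). Mt1 was also higher at E16.5 in the other classes on both platforms. Dermal-like cells went from 187.8 to 1102 CPM in 10x and from 16.2 to 44.2 CPM in Smart-seq2. Muscle progenitor-like cells went from 18.3 to 94.2 and from 0.83 to 17.8 CPM, and differentiating muscle-like cells from 107.5 to 309.1 and from 4.4 to 24.9 CPM. The test of the difference between late progenitors and dermal-like cells gave log2 3.32 with an adjusted p of 0.675.

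A group of progenitor and matrix genes rose too. They were named after their values were seen, except Col5a3, Ly6a and Pi16, which stand on lists used throughout. Pi16, a secreted protein of fascia fibroblasts, went from 0.5 to 43.2 CPM in 10x (1 and 13 UMIs) and from 9.5 to 74.5 CPM in Smart-seq2 (log2 4.15 ± 0.89, edgeR adjusted p = 0.0320). Ly6a went from 2.2 to 46.5 and from 7.0 to 88.7 CPM (log2 4.18 ± 0.85, adjusted p = 0.0228). For Ly6a the E16.5 plates had 44.6, 20.3, 140 and 163.7 CPM and the E14.5 plates 6.8, 8.8, 0 and 0. Col5a3 went from 8.7 to 156.2 and from 41.9 to 191.05 CPM (log2 3.26 ± 0.67, adjusted p = 0.0228), and its E16.5 plates lay between 177.99 and 205.5 CPM.

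Medag, named for its part in fat cell formation, rose from 26.1 to 86.4 and from 23.95 to 389.5 CPM (log2 3.20 ± 0.66, edgeR adjusted p = 0.0228), and was found in 84 Smart-seq2 cells at E16.5. Ndrg1, a stress- and hypoxia-responsive gene, rose from 25.6 to 116.3 and from 86.1 to 683 CPM (log2 2.83 ± 0.55). Crip1, a small LIM-domain protein, rose from 278.99 to 1146 and from 38.6 to 150.8 CPM (log2 2.19 ± 0.46), S100a16 from 21.5 to 83.8 CPM in Smart-seq2 (log2 2.40 ± 0.54), and Thbd, thrombomodulin, from 2.7 to 23.3 and from 2.7 to 72.02 CPM, with 55% of the latter in 1 cell. Dpep1, a membrane dipeptidase, went from 1.1 to 16.6 and from 1.2 to 52.4 CPM and was found in 39 Smart-seq2 cells, and Gprc5a, an orphan receptor induced by retinoic acid, from 1.1 to 10.0 and from 3.6 to 128.9 CPM in 50 cells. Fabp4 was called as well (log2 2.66, adjusted p = 0.038), but it belongs to the adipocyte panel that placed the cells.

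The other named rises were thin. Ifi207, an interferon-inducible gene, had 1 UMI in 10x and was found in 24 Smart-seq2 cells at 24.7 CPM, against none of 59 at E14.5, and every E16.5 plate had it (19.8 to 37.8 CPM). Agt, angiotensinogen, stood at 27.6 CPM in 10 cells against none. Cxcl2 (a chemokine), Cyp27a1 (a sterol hydroxylase), Mkrn3 (an imprinted zinc-finger gene) and Cav2 (a caveola protein) had at most 5.2 CPM in Smart-seq2 at E16.5, none there at E14.5, and the UMIs of a single 10x cell at E16.5. Over all calls, 11 of the 30 higher genes and none of the 11 lower genes had 10 or more UMIs in the 10x sums, and 14 of the 30 had no count in the E14.5 Smart-seq2 sum. A fitted fold change against 0 depends on the prior count and is not given for these genes.

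Lower at E16.5, by the same test, were Zfp93 and Zfp775 (zinc-finger genes), Haspin (a mitotic histone kinase), Frmpd1, Grin3a (an NMDA receptor subunit), Sfrp5 (a secreted Wnt inhibitor), Palmd and Ryr1 (the muscle calcium release channel). All of them had no UMI in the 10x members at E16.5. Grin3a carried most of the signal, at 4.4 CPM in 7 10x cells and 134.1 CPM in 12 Smart-seq2 cells at E14.5, and at 2.3 CPM in 9 cells at E16.5. The other 7 stood between 0.73 and 18.2 CPM in Smart-seq2 at E14.5. The lowest adjusted p of a lower gene belonged to Slc39a2, a zinc transporter singled out here after its values were seen, which went from 167.4 to 2.3 CPM in Smart-seq2 and had no UMI in 10x. It was present at E14.5 in every Smart-seq2 cell of all 4 classes, at 145.4 CPM in dermal-like, 98.6 in muscle progenitor-like and 104.9 in differentiating muscle-like cells, and fell to between 1.8 and 2.3 CPM in all of them, so it moved with the sequencing batch as well as with stage.

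**Figure D5:**
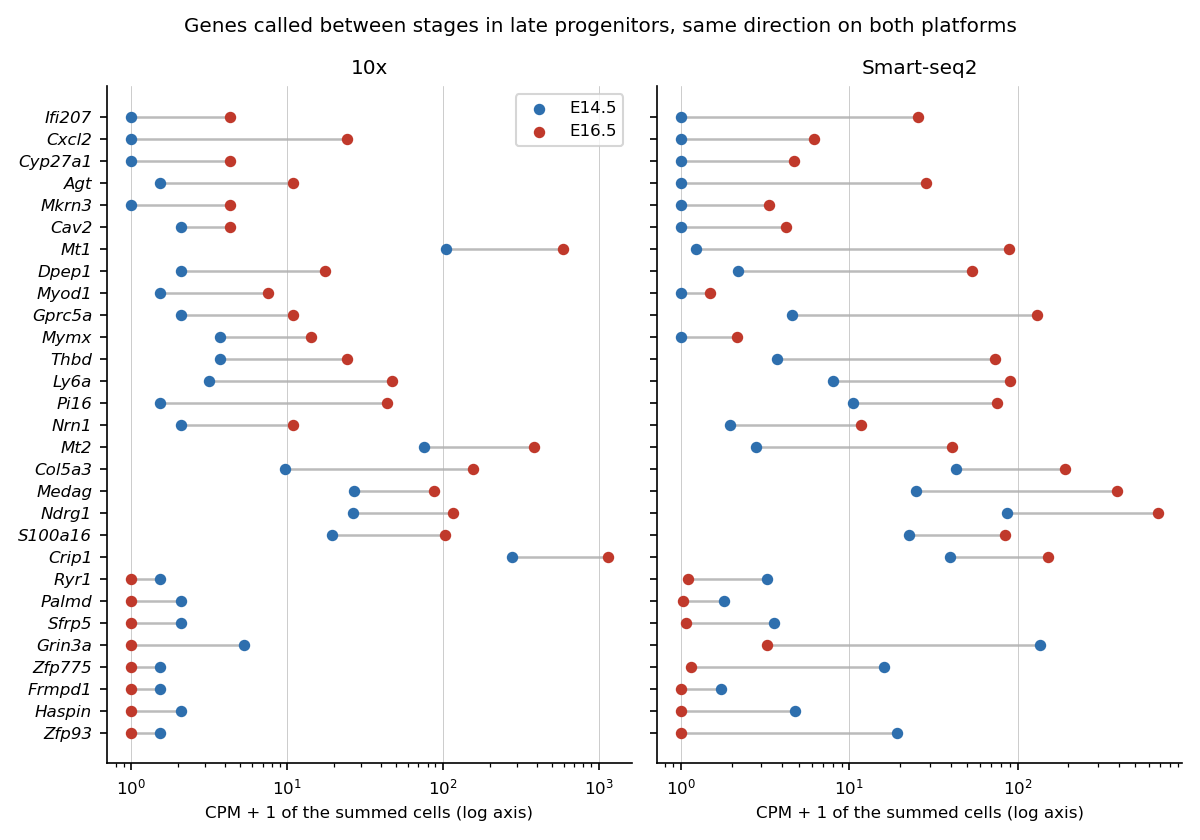
Level in late progenitors at E14.5 (blue) and E16.5 (red) of genes called between stages with the same direction on both platforms and outside the panels (x axis, CPM + 1 of the summed cells, log axis), with 10x on the left and Smart-seq2 on the right. Crip1, Mt1, Mt2, Ndrg1, Medag and Col5a3 have clear levels on both platforms, while the 8 lower genes and many of the upper ones start or end at the left edge, a level of 0.

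Of 10 muscle markers 1, Myod1, was called between stages. Among the 41 calls, Myod1, the myogenic master regulator, Mymx, the fusion protein myomixer, and Smyd1, Unc45b and Ckm, which serve the sarcomere, were higher, and so was the Notch ligand Dll1. The counts are small: Myod1 had 2 UMIs in 10x and was found in 3 Smart-seq2 cells at E16.5, with 88.4% of it in 1 cell. The summed muscle marker list, 10 genes, stood at 93.5 CPM at E14.5 and 146.2 at E16.5 in 10x members (2 of the 10 at 0 at E16.5) and at 37.98 and 105.4 CPM in Smart-seq2 members, against 873 to 15140 CPM in the E16.5 muscle classes. Of the members at E16.5, 48 in 10x and 70 in Smart-seq2 had a muscle panel at or above 0.7 that was still below their own score. The muscle progenitor panel includes Capn6, found in 57 and 95 of all members, against 0 and 11 for Msc, 1 and 12 for Cdh15 and 1 and 2 for Myf5. A muscle panel at 0.7 can therefore rest on Capn6 and does not mark a muscle cell. How many cells reached it by Capn6 alone was not counted. Without the members that had a muscle panel at 0.7 or more at either stage, 57 genes were higher and 36 lower. This setting was added after seeing the data, and 29 of the 41 calls were shared. Unc45b then turned from a fitted log2 difference of 5.05 to -3.48 (adjusted p = 0.759) and Dll1 from 6.13 to -1.13 (0.969). Smyd1 went from 5.42 to 4.66 (0.0946), Ckm from 6.16 to 4.75 (0.562) and Mymx from 4.50 to 2.35 (0.602), and Myod1 had 8.14 (0.00451). Myod1, Mymx, Smyd1 and Dll1 had no count in the Smart-seq2 sum at E14.5. Their fitted values depend on the prior count and are given only to compare the settings. Pi16 (0.0146), Ly6a (0.00304), Mt1 (0.0102), Mt2, Medag, Ndrg1, Crip1, Col5a3, Dpep1, Gprc5a, Thbd, S100a16 and Nrn1 stayed under 0.05 in that setting.

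Most gene groups did not pass the test as members of a list. Of 20 collagens 1 was called, Col5a3, though 18 of the 20 had a positive fitted difference, with a median log2 of 0.98 beside -0.06 over all genes. That shift was in 10x, where the median ratio of the stages was 1.26 on the log2 scale, against -0.06 in Smart-seq2, and 9 of the 20 were higher on both platforms. Their summed level went from 11140 to 27575 CPM in 10x and from 58013 to 65863 CPM in Smart-seq2. Of 10 small leucine-rich proteoglycans and 28 matricellular and elastic fibre genes none was called, with medians of 1.04 and 0.54 in the fit; the platform medians were 0.22 and 0.66 for the former and 0.56 and 0.36 for the latter in 10x and Smart-seq2. The fibro-adipogenic and fascia list had 2 of 14 called, Ly6a and Pi16, and the Wnt list 1 of 15, Sfrp5, lower. Of the adipogenic genes 1 of 18 was called, the panel gene Fabp4. None of the insulin-like growth factor, dermal, cell cycle, complement and chemokine, Bmp and Tgf-beta or imprinted genes was called in either direction. A miss at this size of design does not show that a group held its level.

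Marker lists of other cell types were summed in the members. The tendon list stood highest, at 309.01 CPM in 10x (2 of 5 genes at 0) and 674 CPM in Smart-seq2. Any count of it was found in 15.9% of 10x and 77.1% of Smart-seq2 members. The tenth of members with the most counts held 87.1% of them in 10x and 58.7% in Smart-seq2. The pericyte and smooth muscle list stood at 126.3 CPM (1 of 7 at 0) and 348.8 CPM, with the pericyte marker Rgs5 found in 1 and 9 members and Abcc9 in 8 and 57, and the cartilage and bone list at 96.4 CPM (6 of 10 at 0) and 226.5 CPM. In 10x members at E16.5 the summed endothelial list stood at 49.8 CPM (2 of 5 genes at 0), the immune list at 3.3 CPM (4 of 5 at 0), the neural and Schwann list at 13.3 CPM (3 of 6 at 0), and the red cell and keratinocyte lists at 0. In Smart-seq2 members these were 79.7, 7.9, 21.5, 4.3 and 2.4 CPM. The 9 genes of a dissociation and stress list summed to 4010 CPM at E14.5 and 4270 at E16.5 in 10x, and to 7125 and 11025 CPM in Smart-seq2. Their part in the stage difference was not tested.

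The same stages were compared in dermal-like cells to ask which changes differed between the 2 cell types. In the test of that difference, 26 genes had a larger stage difference in late progenitors (0.186%) and 9 had a smaller difference (0.0644%), with 3.52 and 1.91% of genes at an unadjusted p under 0.05. Every gene named by size here had 0 counts in at least 1 of the Smart-seq2 sums of the 2 classes. Dcaf12l1, the best supported of them, stood at 33.8 and 21.7 CPM in late progenitors on the 2 days and at 19.2 and 0 CPM in dermal-like cells in Smart-seq2, with 8.2 and 6.6 against 11.0 and 0 CPM in 10x. Sphkap had 63 CPM in dermal-like Smart-seq2 cells at E14.5 and none at E16.5, against 1.4 and 1.3 in late progenitors. Pi16 (log2 4.51, edgeR adjusted p = 0.186), Crip1 (2.20, 0.191) and Col5a3 (2.46, 0.688) had larger stage differences in late progenitors that did not pass this test, and for Ly6a the value was -1.73 (adjusted p = 1).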

How the data were processed

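Single YFP+ cells were counted in 2 deposited tables. The authors made the 10x table with Cell Ranger against GRCm38, and its values are raw UMI counts per gene. The authors made the Smart-seq2 table with kallisto (0.44.0 per the labels) and gene-level summing, and its values are estimated counts per gene. The table of sorted bulk samples was not used: its 18 columns write Thy1+ and Thy1- alike and could not be matched to samples, so the planned comparisons of sorted populations were not run. Cells without YFP, cells over 8% mitochondrial counts, Smart-seq2 cells under 4000 genes and 10x cells over 15000 counts were left out, which kept 3852 of 3916. Each cell was scored on 9 panels as described in the results, and 298 cells were late progenitors at E16.5, 189 of 940 in 10x and 109 of 291 in Smart-seq2; shares and counts of cells in the results are out of these. Total counts per cell over those E16.5 cells ran from 407 to 6134 UMIs in 10x and from 40475 to 2694970 in Smart-seq2. The members and the gene lists were chosen with earlier results of these data known.

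For each class, platform and stage the counts of all its cells were added up (groups under 20 cells left out), the Smart-seq2 sums were rounded, and 16 sums over the 15152 genes shared by the tables were fitted with edgeR 4.0.16 (R 4.3.3, filterByExpr, TMM, quasi-likelihood test, Benjamini-Hochberg adjustment). The model had a platform term and a stage term per class, which left 4 residual degrees of freedom. The steps were tested on simulated data. A table value in CPM is the summed count per 1e6 counts of those cells. Comparisons with other E16.5 classes are log2 ratios of CPM with no test, with exact conditional intervals for UMIs, which cover counting error only. Genes named from a fit were the called genes outside the panels with the same sign on both platforms, the 12 furthest up and the 8 furthest down, and 5 and 5 for the difference between classes; 1 gene that this rule names is not reported here. Genes named against other classes were the 20 with the largest smallest gap. Other genes come from the lists or were picked after their values were seen, as stated. DESeq2 1.42.0, no count filter, stricter scores, all deposited cells, thinned cells, fewer classes and leaving out single sums were the alternatives. Promoter windows, gene positions and motif shares use GRCm38 annotation. Spreads over plates are descriptions, since the labels do not tie plates to embryos. No doublet caller was run.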

Additional observations from a re-analysis of the deposited data

Results flagged for a closer look

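The stage difference of 10 genes differed between late progenitors and dermal-like cells by a test of the difference itself, and each of the 10 had a sum of 0 in at least 1 of the Smart-seq2 groups, so that the fitted values depend on the prior count and are no bound. In log2, late progenitors minus dermal-like cells, the values were 14.08 for Unc45b, 13.64 for Sphkap, 12.53 for Prox1, 11.60 for Dcaf12l1 and 10.90 for Pabpc1l, and -15.91 for Zfp93, -15.31 for Car14, -12.98 for Mypn, -11.30 for Cav3 and -10.50 for Sox6. Zfp93 had 18.2 and 0 CPM in late progenitors and 0.8 and 10.1 CPM in dermal-like cells at E14.5 and E16.5 in Smart-seq2. Prox1, a homeobox regulator, had 0.7 and 3.2 CPM in late progenitors and 8.4 and 0 CPM in dermal-like cells. Their causes were not tested.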

How the results depend on the processing

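The share of the tested genes called between stages in late progenitors (0.215% higher, 0.0788% lower) moved with almost every choice. It was 0.305 and 0.504% with DESeq2, 0.544 and 0.212% with no filter on low counts, 0.722 and 0.286% with a score of at least 1.4, 0.825 and 0.330% with at least 2 panel genes, 0.741 and 0.278% with thinned cells, 0.534 and 0.139% with only late progenitor sums fitted, and 0.410 and 0.259% without members carrying a muscle panel, a setting added after seeing the data. Leaving out single sums gave 0 to 1.12% higher and 0 to 0.360% lower. For the difference from dermal-like cells (0.186 and 0.0644%) the shares were 0.431 and 0.146% with no filter, 0.608 and 0.222% with a score of at least 1.4, 0.667 and 0.244% with at least 2 panel genes, 0.749 and 0.171% with thinned cells, 0.0353% lower with only those classes fitted, and 0 to 0.686% higher and 0.00795 to 0.218% lower with single sums left out. All 41 stage calls recurred with no filter, the stricter scores, all deposited cells and thinned cells, and 16 recurred with DESeq2. Of 51 tested genes, the 41 stage calls and the 10 genes named for the difference between classes, 32 lost the adjusted threshold with DESeq2, 20 of 43 with only the classes compared, 39 without either Smart-seq2 sum, where 2 more changed sign and the other 10 gave no value, 4 without a 10x sum and 1 with thinned cells. Without members carrying a muscle panel 14 lost it and 3 changed sign, Unc45b to -3.48, Dll1 to -1.13 and Wscd1 to 0.33 in log2. With single sums left out Smyd1 ran from -7.29 to 7.66 and Dll1 from -7.29 to 8.44, the negative values without a Smart-seq2 sum. The 10x share of late progenitors was 16.2% at a score of at least 1.4 and 16.49% with at least 2 panel genes, and the Smart-seq2 share was 31.9% over all deposited cells. Why these values moved was not tested. No paired analysis was possible because the single-cell sums carry no replicate numbers, and the sorted bulk columns could not be matched to samples. The depth of the E16.5 10x cells limits how low a gene can be followed there.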
